A study of Homo sapiens with 6 samples.

Results

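The regions described here were the strongest ATAC-seq regions of RKO cells that lay away from the starts of protein-coding genes. Peaks of 6 samples were merged wherever they overlapped by at least 1 bp. A region was kept when it held a peak in all 6 samples, when its signal averaged over the 3 DMSO samples was at least 150, and when its midpoint was more than 5 kb from every coding gene start in GRCh38. Of 102784 merged regions, 50150 held a peak in every sample, 33572 of these were distal and 2761, or 8.22% of the distal ones, reached the threshold. The members were thus selected on their DMSO signal, so their high level is not a finding and their difference between conditions is given as a description.

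RKO is an established human colon cancer cell line, used here at passage 3 from the supplier and grown in DMEM under 5% oxygen. Aphidicolin (APH) inhibits the replicative DNA polymerases, and a low dose slows replication forks. 3 samples received 0.2 µM APH for 16 h and 3 were labelled DMSO, the solvent, and the question was whether mild replication stress alters chromatin accessibility. All 6 were of this 1 line, and the cells were treated with DNase, frozen and thawed before tagmentation. In such bulk samples, a lower signal in every cell and a loss of signal in some of the cells cannot be told apart.

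ATAC-seq relies on the Tn5 transposase, which inserts sequencing adapters into DNA that is not wrapped in nucleosomes. Open sites away from coding promoters are mostly enhancers, where transcription factors such as AP-1 displace nucleosomes, together with insulators bound by CTCF and promoters of noncoding genes. tRNA genes belong to the promoters, since RNA polymerase III and its factors TFIIIC and TFIIIB hold these short genes and their flanks open. Enhancers often lie in groups around genes of cell identity or growth.

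The signal of a peak was its mean coverage without any scaling for library size, so a difference in depth passes into the values. The depth of each library is unknown, and the 6 lists held 64511 to 84510 peaks. DMSO replicate 2 stood above the other samples at the strong distal regions, with a mean signal of 259.98 against 203 and 209.9 in DMSO replicates 1 and 3. As a check of the cell type, a region within 1 kb of a coding start was found for 6 of 22 epithelial and intestinal genes, among them EPCAM, KRT8 and CDX2, but not for CDH1, KRT18 or VIL1. Of 14 marker genes of fibroblasts, blood and endothelium 3 had one (COL1A1, COL1A2 and CD68), and of 18 mesenchymal genes 7.

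Sequence could be shown where the start of a long noncoding RNA (lncRNA) lay inside a strong distal region, because windows from 250 bases before to 50 bases after gene starts were available from RefSeq (GRCh38.p14). The windows below are those of the named lncRNAs with highest DMSO signal, 5 with and 2 without the letters of the AP-1 motif TGANTCA. They lay wholly inside members and are written 5′ to 3′ on the strand of the gene. Capitals mark the AP-1 letters in the first 5, and GGGCGG or its reverse complement, the GC box bound by SP and KLF factors, in the last pair. The window of LINC00513, in the same region as that of LINC-PINT but on the other strand, is left out.
LINC-PINT, chr7:130913261-130913560, minus strand: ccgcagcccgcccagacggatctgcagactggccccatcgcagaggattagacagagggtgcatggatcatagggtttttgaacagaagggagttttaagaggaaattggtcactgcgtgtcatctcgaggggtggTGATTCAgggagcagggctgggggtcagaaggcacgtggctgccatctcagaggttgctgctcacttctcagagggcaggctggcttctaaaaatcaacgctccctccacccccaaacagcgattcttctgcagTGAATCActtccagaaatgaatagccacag
HCG25, chr6:33249286-33249585, plus strand: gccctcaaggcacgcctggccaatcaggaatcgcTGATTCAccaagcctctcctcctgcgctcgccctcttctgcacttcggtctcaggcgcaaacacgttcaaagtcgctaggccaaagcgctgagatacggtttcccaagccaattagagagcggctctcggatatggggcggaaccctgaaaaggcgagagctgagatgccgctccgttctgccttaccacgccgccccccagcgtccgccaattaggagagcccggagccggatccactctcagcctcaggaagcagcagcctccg
PRECSIT, chr13:110870259-110870558, minus strand: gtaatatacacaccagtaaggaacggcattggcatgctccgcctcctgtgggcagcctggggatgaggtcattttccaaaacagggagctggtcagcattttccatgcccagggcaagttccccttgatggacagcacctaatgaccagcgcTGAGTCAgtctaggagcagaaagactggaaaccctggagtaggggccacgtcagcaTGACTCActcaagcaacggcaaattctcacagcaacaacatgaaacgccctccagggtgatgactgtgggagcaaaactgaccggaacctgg
LINC01629, chr14:76959388-76959687, plus strand: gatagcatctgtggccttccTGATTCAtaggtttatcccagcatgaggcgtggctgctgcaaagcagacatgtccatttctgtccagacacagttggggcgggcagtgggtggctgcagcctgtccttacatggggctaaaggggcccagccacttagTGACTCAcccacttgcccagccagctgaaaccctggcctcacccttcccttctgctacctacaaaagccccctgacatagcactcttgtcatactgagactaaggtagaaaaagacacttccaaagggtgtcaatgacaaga
LUCAT1, chr5:91314353-91314652, minus strand: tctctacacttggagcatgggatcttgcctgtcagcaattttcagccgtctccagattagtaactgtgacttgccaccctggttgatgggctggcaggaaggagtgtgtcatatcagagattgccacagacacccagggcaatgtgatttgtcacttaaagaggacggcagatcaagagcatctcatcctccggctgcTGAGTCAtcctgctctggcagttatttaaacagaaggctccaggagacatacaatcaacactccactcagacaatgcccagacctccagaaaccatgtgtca
MIRLET7A1HG, chr9:94166008-94166307, plus strand: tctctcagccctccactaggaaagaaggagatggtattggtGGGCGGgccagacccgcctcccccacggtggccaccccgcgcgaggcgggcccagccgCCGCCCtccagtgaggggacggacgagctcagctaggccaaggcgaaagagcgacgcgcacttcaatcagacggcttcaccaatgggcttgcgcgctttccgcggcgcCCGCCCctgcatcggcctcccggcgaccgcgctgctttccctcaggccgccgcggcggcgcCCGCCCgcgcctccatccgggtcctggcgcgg
LINC01409, chr1:778548-778847, plus strand: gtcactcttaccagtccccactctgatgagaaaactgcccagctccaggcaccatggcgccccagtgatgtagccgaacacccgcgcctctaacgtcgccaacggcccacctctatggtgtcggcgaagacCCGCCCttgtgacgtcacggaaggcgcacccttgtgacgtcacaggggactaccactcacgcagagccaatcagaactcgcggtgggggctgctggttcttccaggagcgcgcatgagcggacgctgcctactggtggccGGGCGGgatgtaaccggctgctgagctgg

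LINC-PINT, a lncRNA that p53 induces, had 2 copies of the AP-1 letters in its window, as did PRECSIT and LINC01629, and HCG25 and LUCAT1 had 1. The LINC-PINT region, nearest to KLF14, carried 491, 576 and 388 in DMSO and 374, 426 and 329.9 in APH. The HCG25 region, nearest to VPS52, carried 441, 552 and 436 in DMSO and 377, 406 and 347 in APH, with no overlap between the groups. The region at LINC01629, nearest to IRF2BPL, carried 343, 451 and 403 in DMSO and 389.9, 441 and 364 in APH, and here and at LINC-PINT the groups overlapped. The windows of MIRLET7A1HG, the host gene of let-7 miRNAs, and LINC01409 held no AP-1 letters, and G and C made up 72.7% and 63.7% of their bases, against 49.7% to 61.3% in the first 5. At MIRLET7A1HG, nearest to PTPDC1, the signal was 378, 456 and 425 in DMSO and 303, 341 and 323 in APH, and at LINC01409, nearest to OR4F16, it was 322, 401 and 358 against 225, 251.1 and 259.9. In both, every APH sample lay under every DMSO sample.

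Among 195 such windows inside strong distal regions, 24.6% held the AP-1 letters, beside 22.0% of 300 windows inside weaker distal regions, 11.1% of 8460 distal windows with no peak in any sample and 7.71% of all 35116 promoter windows. The GC box was held by 60.0%, 40.7%, 11.4% and 45% of the same 4 sets. The cAMP response element TGACGTCA, added after the data were seen, was held by 9.74%, 2.33%, 0.437% and 1.85%, and the CCAAT box of NF-Y, added likewise, by 45.1%, 29.0%, 36.2% and 34.6%. The letters AGATAA of GATA factors were held by 5.13%, 8.67%, 18.2% and 10.3%, and TGTTTAC of FOX factors by 1.54%, 3.33%, 5.28% and 3.42%, so the strong set was the lowest of the 4 for both.

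CCANNAGG, a part of the CTCF motif, was held by 25.6% of the windows in strong and 22.0% in weaker distal regions, by 20.2% of windows without a peak and by 21.4% of all promoter windows. For TEAD letters (GGAATG) these shares were 16.9%, 14.3%, 19.0% and 14%, highest in windows without a peak. For RUNX letters (TGTGGT) they were 11.3%, 14.7%, 18.4% and 13.1%, lowest in the strong distal set. Each motif was searched on both strands. Base composition differed between the sets, with a median of 62.0% G and C inside strong and 60.7% inside weaker distal regions against 45.7% in windows without a peak, and its part in these shares was not tested. A match is a run of letters and not a bound site.

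The strong distal regions had a median DMSO signal of 199.6 (quartiles 170.1 and 252), while the other 30811 distal regions had a median of 48.5. 1373 members reached 200, 372 reached 300, 99 reached 400, 25 reached 500 and 2 exceeded 1000. Their median width was 584 bp, against 408 bp for the weaker distal regions and 888 bp for the 5773 promoter regions (within 1 kb of a coding start) that passed the same threshold. Their median distance to a coding start was 27.8 kb, against 39.3 kb for the weaker ones. 15.9% of members lay between 5 and 10 kb from a coding start, 52.2% between 10 and 50 kb and 14.4% between 100 and 500 kb, where the weaker regions had 12.1%, 45.3% and 21.1%. 1115 members (40.4%) lay inside a coding gene, as did 46.6% of the weaker distal regions.

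The 3 members just inside the threshold were a region at the start of LINC00863 nearest to NUTM2D with 164, 153 and 134 in DMSO, one inside RBM26 with 98.5, 213 and 138 and one near SFXN3 with 156, 160.2 and 134. Just outside it were regions near EIF2B2 with 127, 185 and 139, ZNF488 with 162, 101 and 187 and CCDC54 with 124, 203 and 123. Samples of the DMSO group thus differed far more at these regions than the regions did from the threshold.

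The mean signal over all members was 203, 259.98 and 209.9 in the DMSO samples and 200.6, 224 and 181 in the APH samples. The groups overlapped, with means of 224 ± 31.0 (SD, n = 3) and 202 ± 21.4 (SD, n = 3). The median log2 difference, APH minus DMSO after adding 1 to each value, was -0.15 over the members, and 2283 of them (82.7%) had a negative difference. Negative differences made up 59.3% of all shared regions, 44.3% of the weaker distal regions and 97.1% of strong promoter regions. The share in the members is a description, since the DMSO values chose them. A log2 difference compares means of log2 values, so near 0 its sign can differ from that of the difference in mean signal. The median was 0.03 over the weaker distal regions and -0.06 over all 50150 shared regions. Without DMSO replicate 2 the median over the members was -0.03, and without APH replicate 3 it was -0.07. After quantile normalization, which gives all samples the same distribution of values, it was 0.06, so its sign depended on the scaling. The members' share of the summed signal of all peaks was 12.6%, 13.8% and 12.4% in DMSO and 13.3%, 13.7% and 12.3% in APH.

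All 3 APH samples lay under all 3 DMSO samples in 502 members (18.2%) and over them in 13 (0.471%). Over all shared regions these shares were 14.4% and 4.21%, and nothing is read from the comparison because the DMSO values chose the members. Without DMSO replicate 2, 549 members (19.9%) were lower in this way, beside 18.0% of all shared regions. The mean APH signal was under 150 in 538 members (19.5%), and the lowest was 102.

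limma, fitted over all shared regions without a replicate block, called 0 of 50150 regions in either direction at an adjusted p of 0.05, a background of 0%. The smallest adjusted p was 0.29. A fit with a replicate block did call regions and is given with the alternatives below. At an unadjusted p under 0.05 it called 415 members lower and 10 higher in APH, where 10.1% and 2.46% of all shared regions were called in these directions. Leaving out a replicate gave 184 to 503 members lower. Fewest were lower without APH replicate 1 and most without APH replicate 2, where 2068 and 4411 of all shared regions were lower. The count of members higher moved more. It was 98 without DMSO replicate 2 and 38 without APH replicate 3, where 3828 and 2863 of all shared regions were higher. It was 6 without DMSO replicate 3 or APH replicate 1, where 589 and 516 of all shared regions were higher. Without DMSO replicate 1 or APH replicate 2 it was 3, where 464 and 420 of all shared regions were higher. An adjusted p over the threshold does not show that a region did not differ. With quantile normalized values the split of members turned to 68 lower and 279 higher, beside 2304 and 2960 of all shared regions. With each sample centred on its median it was 481 lower and 34 higher, beside 4925 and 3091.

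**Figure D1:**
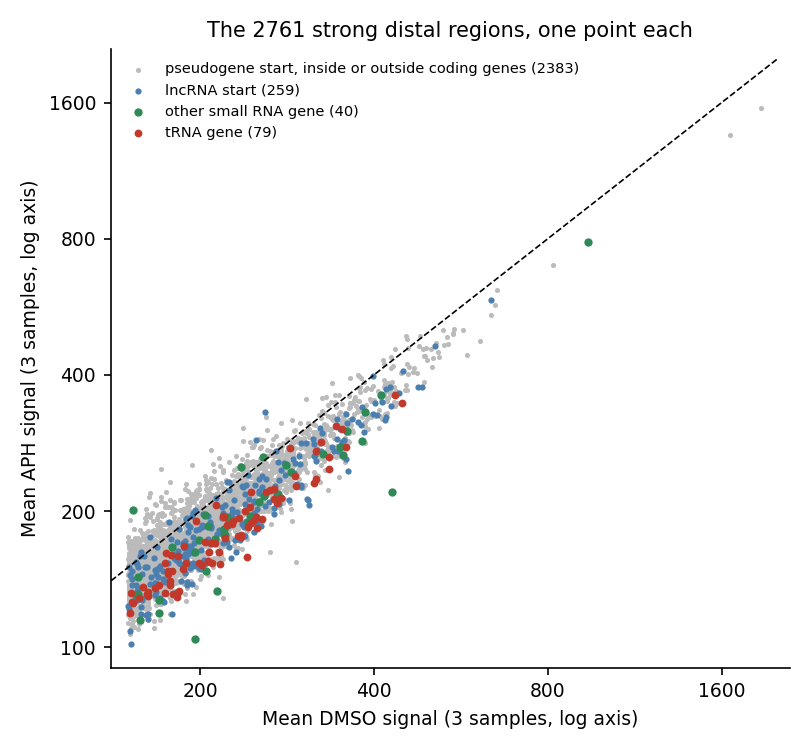
Mean APH signal against mean DMSO signal of the 2761 strong distal regions on log axes, with tRNA genes, other small RNA genes and lncRNA starts in their own colours and all others in gray. The dashed line marks equal signal, and most points lie under it, including all 79 regions with a tRNA gene.

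Since the rule used the DMSO samples, regions were also chosen on a single DMSO sample and compared in the remaining 2 DMSO and 3 APH samples. Chosen on DMSO replicate 1, 2302 distal regions had a mean of the sample medians of 7.87 in DMSO and 7.65 in APH on the log2 scale (difference -0.22, two-sided exact permutation p = 0.3). Chosen on replicate 3, 2426 regions gave 7.81 and 7.62 (difference -0.19, exact permutation p = 0.4). Chosen on replicate 2, 3862 regions gave 7.41 in both (exact permutation p = 0.8). Relative to the median of all shared regions in each sample, the differences were -0.15, -0.05 and -0.11 for regions chosen on replicates 1, 2 and 3, with exact permutation p of 0.1, 0.3 and 0.1. 0.1 is the smallest p that 2 against 3 samples allow, and adjusted over these 6 comparisons the smallest p was 0.3.

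The width of the called peaks had no threshold in the rule and entered it only as a weight where a sample had several peaks in a region. Summed over the peaks of a member, it averaged 632, 599.6 and 623 bp in DMSO and 609, 602 and 619.5 bp in APH. The means of 618 ± 16.7 bp and 610.2 ± 8.82 bp (SD, n = 3 each) overlapped (two-sided exact permutation p = 0.5, with 0.1 the smallest possible).

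Distal regions at noncoding genes reached the threshold more often than others. Each region was put in the first of 6 classes that applied: overlap with a tRNA gene, overlap with another small RNA gene, a lncRNA start within 1 kb of the midpoint, a pseudogene start within 1 kb, a midpoint inside a coding gene, or none. Of 168 distal regions with a tRNA gene, 79 (47.0%) were members. Of 107 with another small RNA gene 40 (37.4%) were, of 1129 at a lncRNA start 259 (22.9%) and of 349 at a pseudogene start 61 (17.5%). Inside coding genes 1055 of 15111 (6.98%) were members, and outside them 1267 of 16708 (7.58%), where all distal regions had 8.22%. The last pair of classes still made up most members, 38.2% and 45.9%.

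**Figure D2:**
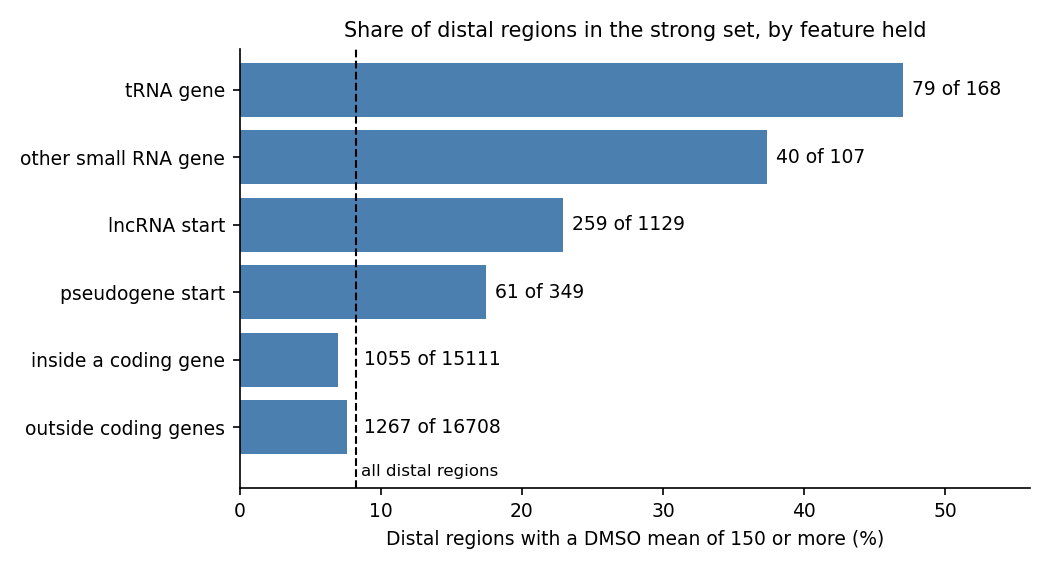
Share of the distal regions of each class that reached a mean DMSO signal of 150, in percent, with the number of members and of distal regions beside each bar. The dashed line is the share of 8.22% over all distal regions. The bar of the tRNA genes reaches 47.0% and that of regions inside coding genes 6.98%.

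tRNA genes are transcribed by RNA polymerase III from promoters inside the gene. The 79 members held 97 of 429 tRNA genes, 62 of them 1 gene and 17 of them 2 or 3, and 20 of the 22 letters that tRNA symbols use for the amino acid were among them. Leucine (L) had 11 genes in members of 32 annotated, proline (P) 10 of 20 and threonine (T) 8 of 20, while cysteine (C, 29 genes) and tyrosine (Y, 13 genes) had none. tRNA genes exist in near-identical copies and uniquely mapped reads were kept, so the level of a single copy is uncertain. 30 of the 79 members lay between 26 and 30 Mb of chromosome 6, where many tRNA genes lie, and 12 on chromosome 1.

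The strongest tRNA member held TRL-CAG2-1 and TRL-CAG2-2 at chr16:57299490-57300909, 15.5 kb from PLLP, and carried 416, 532 and 395 in DMSO and 346, 384 and 311 in APH, without overlap. TRX-CAT1-8, near FOXK2, followed with 388, 489 and 429.8 against 351, 407 and 327, with overlap. At TRR-CCG1-3 near ZNF213 the values were 319, 390.2 and 365 in DMSO and 259.8, 279 and 291 in APH. At TRD-GTC2-11 and TRP-CGG1-3, 12.1 kb from AURKB, they were 307, 344 and 303 against 222, 246 and 240.1, and at TRP-AGG2-6 and TRT-TGT3-1 near RNASE12 327, 363 and 311 against 256, 248 and 238. TRT-AGT1-3, near LRP3, carried 292, 317 and 336 against 214, 243 and 236. In these last 4 regions every APH sample was under every DMSO sample.

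Over the 79 tRNA members the median signal was 203, 243 and 221 in DMSO and 172, 183 and 174 in APH, so the groups did not overlap. All 79 had a negative log2 difference, with a median of -0.30, and 48 had no overlap between groups. The median was -0.22 without DMSO replicate 2, -0.27 with samples centred on their median and -0.12 after quantile normalization, where 65 of 79 had a negative value. Of all shared regions 59.3% had a negative value and 14.4% had no overlap with APH lower. The 5773 strong promoter regions had a median of -0.29, with 97.1% negative and 52.3% without overlap and lower in APH. The 89 distal regions with a tRNA gene that were under the threshold had a median log2 difference of -0.27, and 84 of them had a negative value, 44 of these without overlap. Their median signal was 91.1, 104.6 and 102 in DMSO and 81.1, 83.4 and 81.1 in APH, again without overlap.

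**Figure D3:**
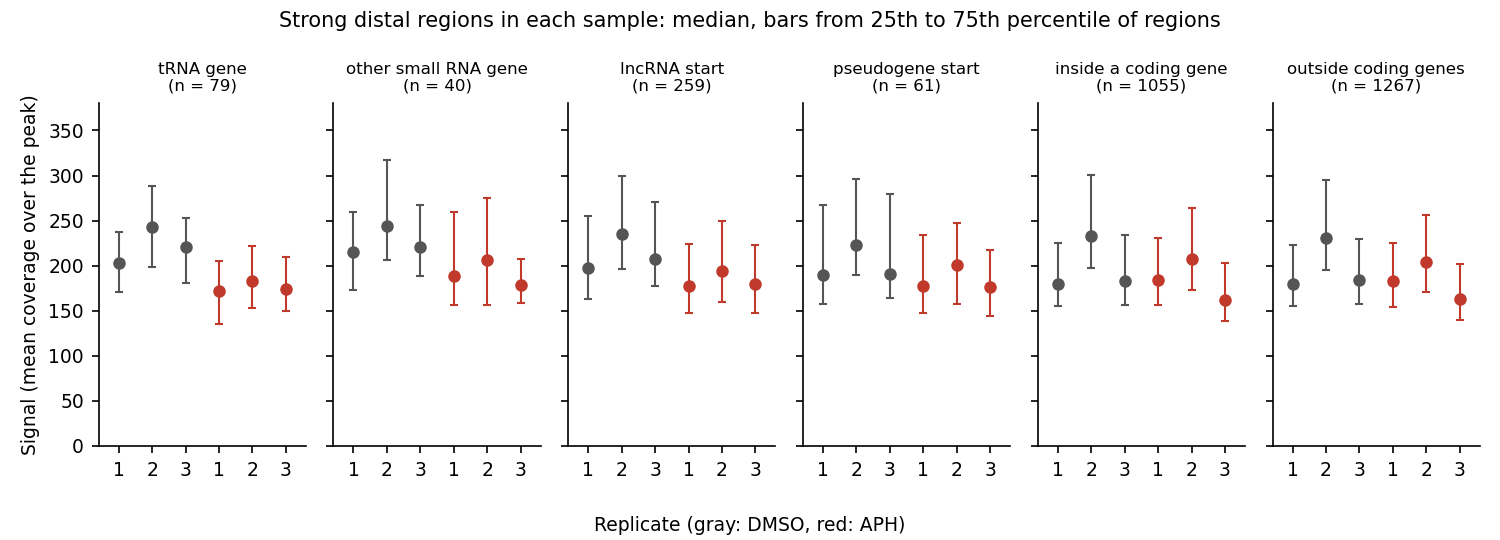
Signal of the strong distal regions in each of the 6 samples, one panel for each class, with DMSO in gray and APH in red. Points are medians over regions and bars run from the 25th to the 75th percentile of regions. In the panels of tRNA genes, other small RNA genes and lncRNA starts all APH medians lie under all DMSO medians, while the panels inside and outside coding genes overlap.

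Other small RNA genes in members included several families of RNA polymerase III and of the snRNA type. All 4 genes annotated as vault RNAs lay in members, and so did RN7SL1 and RN7SL2, which encode the RNA of the signal recognition particle. 18 of the 30 distal regions with a small nuclear RNA (snRNA) gene were members (60.0%), against 7 of 34 with a miRNA gene and 4 of 19 with a snoRNA gene. The snRNA genes included RNU4ATAC and RNU6ATAC of the minor spliceosome, RNU5A-1, RNU5B-1, RNU5D-1, RNU5E-1 and RNU5F-1, and 7 genes of the RNVU1 family of variant U1 RNAs on chromosome 1, which also have near-identical copies.

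VTRNA1-1, VTRNA1-2 and VTRNA1-3 lay 10.6 to 25.7 kb from ZMAT2 on chromosome 5. VTRNA1-1 carried 212, 226 and 222 in DMSO and 174, 185 and 172 in APH. VTRNA1-2 carried 299, 401 and 379 against 295, 331 and 274, and VTRNA1-3 carried 309.8, 386 and 351 against 279.6, 295 and 255. VTRNA2-1, nearest to TGFBI, carried 131, 192 and 149 against 97.4, 123 and 124. The groups overlapped at VTRNA1-2 but not at the other 3 genes. RN7SL2, near NEMF, carried 297, 364 and 317 in DMSO and 278, 275 and 248 in APH, and RNU4ATAC, inside CLASP1, carried 192, 229 and 193 against 151, 147 and 143, both without overlap. RNU5E-1, near KIAA2013, carried 243, 271 and 258 against 287, 278 and 224, with overlap.

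RNY1, which encodes a Y RNA, differed in the other direction. Its region, 37.7 kb from PDIA4, carried 131, 168 and 161 in DMSO and 207, 188 and 208 in APH (log2 difference 0.40), and all APH samples were higher. Over the 40 members of this class the median log2 difference was -0.27, 37 had a negative value and 18 of these did not overlap. The shares without overlap and lower in APH were 14.4% of all shared regions and 52.3% of strong promoter regions. The medians by sample were 215, 244 and 221 in DMSO and 188, 206 and 179 in APH. The median difference was -0.20 without DMSO replicate 2 (35 negative) and -0.06 after quantile normalization (29 negative). The 67 weaker distal regions of this class had a median of -0.14, and 42 of them (62.7%) had a negative value, 15 without overlap.

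lncRNAs are transcribed by RNA polymerase II from promoters that resemble those of coding genes. The 259 members at a lncRNA start had a median signal of 198, 235 and 207 in DMSO and 177, 194 and 179.7 in APH, without overlap, and a median log2 difference of -0.23. 243 of them had a negative value and 98 of these did not overlap. Of all shared regions 59.3% were negative and 14.4% apart with APH lower, and of strong promoter regions 97.1% and 52.3%. Over the 259 members the median difference was -0.16 without DMSO replicate 2 (209 negative) and -0.02 after quantile normalization (147 negative). In the 870 weaker distal regions at lncRNA starts it was -0.05, and 93 of these were apart with APH lower and 48 with APH higher. The strongest member was at LINC00663 near ZNF14, with 530.1, 774 and 609 in DMSO and 577, 684 and 499.6 in APH, which overlapped. LOC100630923, 7.38 kb from SPDYE6, had 467, 596 and 469 against 479.6, 505 and 405, and PRECSIT near ANKRD10 had 361, 528 and 436 against 384, 399.6 and 308, and both overlapped. LINC01275 near PEDS1-UBE2V1 had 399, 474 and 413 against 366, 383 and 275 without overlap. The 61 members at pseudogene starts had a median difference of -0.21, and their sample medians overlapped.

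The 1055 members inside and the 1267 outside coding genes, the classes that hold most candidate enhancers, both had a median log2 difference of -0.13. Inside genes the medians by sample were 180.1, 233 and 183 in DMSO and 184, 207 and 162 in APH. Outside genes they were 180.1, 230.5 and 184 in DMSO and 183, 204 and 163 in APH, and both classes overlapped between the groups. The differences shrank to -0.004 and -0.02 without DMSO replicate 2 and became positive after quantile normalization, 0.08 and 0.07. 12.9% and 13.8% of these members had no overlap with APH lower, beside 14.4% of all shared regions. Nothing is read from these shares, since the DMSO values chose the members.

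Beside coding promoters of similar DMSO signal, the distal regions had smaller log2 differences. Of 6 bins of DMSO signal, the 823 members in the weakest had a median of -0.12, against -0.27 for 1237 promoter regions, and at 400 or more the values were -0.20 for 99 members and -0.28 for 366 promoters. In the weakest bin the distal medians were 148, 187 and 149.7 in DMSO and 148, 164 and 133 in APH, and the promoter medians were 153, 164 and 167 in DMSO and 126, 133 and 141 in APH. In this bin the promoter medians did not overlap between the groups, and the distal ones did. At 400 or more both overlapped, with promoter medians of 408, 520 and 441 in DMSO and 367, 410 and 354 in APH. Among regions of 500 to 700 bp the median difference was -0.13 for 1207 members and -0.28 for 1112 promoters, and under 500 bp it was -0.11 and -0.25. The gap was smaller in wider regions, with -0.21 against -0.29 at 700 to 1000 bp and -0.23 against -0.29 at 1000 bp or more, the bins that held most promoters. The log2 ratio of the mean distal to the mean promoter signal was -0.15, -0.01 and -0.23 in DMSO and 0.05, 0.09 and -0.15 in APH, and these values overlapped.

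**Figure D4:**
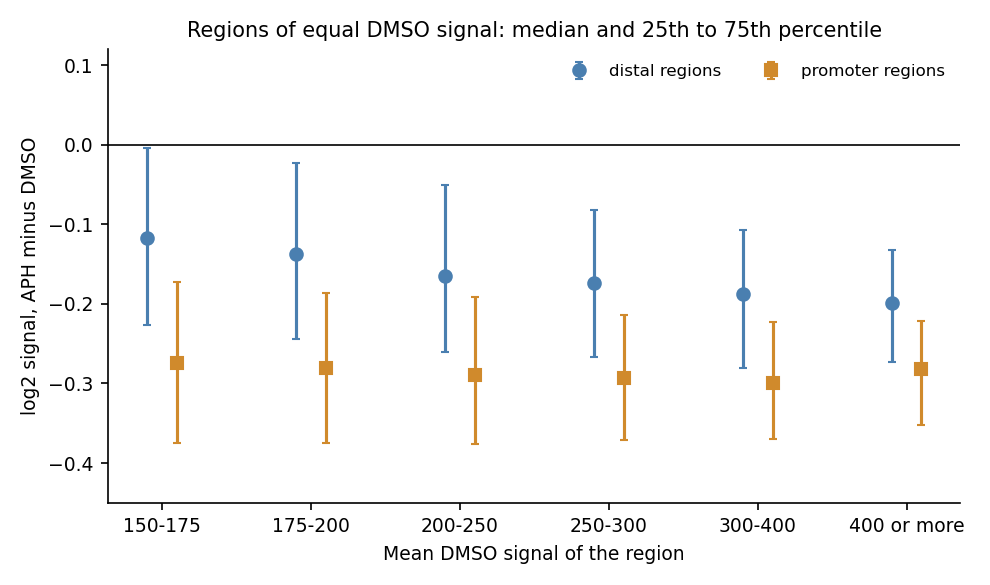
Median log2 difference in signal, APH minus DMSO, of strong distal regions and strong promoter regions in 6 bins of mean DMSO signal. Bars run from the 25th to the 75th percentile of regions. The distal medians run from -0.12 to -0.20 and the promoter medians from -0.27 to -0.30.

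The strongest members of all were a neighbouring pair near the start of chromosome 21. chr21:6371684-6372413, 95.1 kb from LOC102724560, carried 1744, 2149.6 and 1714 in DMSO and 1563, 1747 and 1356 in APH. chr21:6368966-6371564, 96.9 kb from it, carried 1556, 1859.5 and 1553 against 1332, 1589 and 1149. 8 members in all lay before 10 Mb of chromosome 21. Next came chr17:43251513-43251938, which overlapped the small RNA gene LOC124904138 20.5 kb from CCDC200, with 797, 1196 and 829.7 against 794, 941 and 628. All 3 overlapped between the groups, and copy number and read mapping were not measured at these regions.

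Among the next 7, a region inside PLEC, the gene of the cytoskeletal linker plectin, carried 705, 869 and 880.3 in DMSO and 678, 757 and 669.6 in APH. One 69.0 kb from KMT2E carried 585, 802 and 573 against 655, 709 and 482, and one 24.9 kb from PTK2, which encodes focal adhesion kinase, carried 562, 805 and 579.9 against 553, 706 and 458. LINC00663 followed, and then GPIHBP1, whose protein anchors lipoprotein lipase, with a region at 6.87 kb that carried 593, 707 and 613 against 523, 603 and 499.8. ITGB1, the integrin beta 1 subunit, had one at 22.7 kb with 594, 742 and 499 against 486, 541 and 398. TRAPPC9, a subunit of a vesicle tethering complex, had one at 6.03 kb with 568, 594 and 575 against 426, 445 and 456, where the groups did not overlap, unlike in the other 9. 4 of the 10 lay on chromosome 8, which held 226 members. There, only the 5′ end of a coding gene was available as its start, so an alternative start could lie nearer.

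Strong distal regions often lay close to each other. 770 members (27.9%) had another member with its midpoint within 20 kb, while 7.14% of the weaker distal regions had a member that near, and 27.7% of strong promoters had another strong promoter. Chained at 20 kb, the members formed 312 clusters, 82 of them of 3 or more. At 50 kb these shares were 40.1% of members, 14.8% of weaker distal regions and 47.5% of strong promoters, so there promoters had a neighbour of their kind more often. Any distal region at all, weak or strong, lay within 20 kb of 70.2% of members and 50.1% of the weaker regions.

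The largest cluster held 11 members over 64.7 kb at chr7:130896923-130961646, between KLF14, which encodes a Krüppel-like transcription factor, and MKLN1, which encodes muskelin, and it included the LINC-PINT start. Its members ranged from 172 to 485 in mean DMSO signal, and its log2 differences ran from -0.50 to 0.11. A cluster of 7 over 25.9 kb lay upstream of HMGA2 with 166 to 434, all of them with negative log2 differences (-0.46 to -0.15). A further 7 over 42.3 kb between BTN3A2 and H4C8 were weaker, 152 to 227, and 4 of them held tRNA genes. The 6 nearest to PLEC lay within 16.6 kb, with 182 to 818 and log2 differences of -0.37 to -0.02.

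The members were nearest to 2044 coding genes, which is 10.2% of 20037, and 137 genes had 3 or more. Most often nearest were MKLN1 with 11, KLF14, MYC, HMGA2 and JUN with 10 each, SPRY4 with 9 and POU5F1B with 8. TRIM27 and PRSS1 had 7 each, and all 7 of TRIM27 held tRNA genes. Nearness is a position only, and the gene a distal region acts on was not measured.

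JUN, a subunit of the AP-1 transcription factor, had 1 member downstream of its 5′ end and 9 upstream, out to 236.5 kb. The strongest, 65.1 kb upstream, carried 402, 473 and 372 in DMSO and 364, 424 and 340.1 in APH, with overlap. Those 32.3 and 119.8 kb upstream carried 181, 165 and 188 against 113, 123 and 144, and 215, 216 and 258 against 167, 163 and 188. These did not overlap between groups, nor did the one at 31.1 kb with 204, 226 and 214 against 171, 186 and 176. The others overlapped, and 9 of the 10 had a negative log2 difference.

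HMGA2 encodes an architectural chromatin protein of embryonic and tumour cells. 8 of its members lay upstream, 7 of them 167.5 to 192.3 kb away, and 2 lay inside the gene 67.7 and 68.6 kb from its start. The strongest, inside the gene, carried 395, 555 and 429 in DMSO and 430.3, 488 and 330.0 in APH, and the one 175.1 kb upstream carried 387, 561 and 355 against 382, 393 and 268, both with overlap. Those 180.5 and 167.5 kb upstream carried 342, 387 and 319.5 against 286, 252 and 257, and 273, 315 and 241 against 201, 198 and 197, both without overlap.

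MYC encodes a growth-promoting transcription factor, and all 10 of its members lay downstream, from 7.73 to 447.9 kb. The one at 96.3 kb carried 425, 581 and 421 in DMSO and 445, 426 and 339 in APH, the one at 116.5 kb carried 407, 519 and 442 against 479, 529 and 431, and the one at 441.5 kb carried 426, 474 and 391 against 406, 423 and 331. None of the 10 separated the groups, and their log2 differences ran from -0.23 to 0.11. A further 26 weaker distal regions were nearest to MYC.

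SPRY4, an inhibitor of receptor tyrosine kinase signalling, had members that separated in both directions. The strongest, 147.4 kb upstream, carried 452, 636 and 463 in DMSO and 442, 522 and 386 in APH, with overlap. The region inside the gene, 14.1 kb from its 5′ end, carried 222, 245 and 244 against 269, 313 and 276, and its neighbour at 14.9 kb carried 158, 179 and 178 against 179, 209 and 206. In both every APH sample was higher. The one 32.1 kb upstream carried 204, 211 and 234 against 169.5, 152 and 192, and there every APH sample was lower.

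PDP1, which encodes a phosphatase that activates pyruvate dehydrogenase, had 6 members with log2 differences of 0.01 to 0.33, and the mean signal was higher in APH in each but the one at 119 kb, with 173 in DMSO and 171 in APH. The one 42.8 kb upstream carried 142, 205 and 154 in DMSO and 214, 217 and 191 in APH, and the one 142.6 kb downstream carried 196, 334 and 228 against 263, 337 and 266. DMSO replicate 2 was the highest of the DMSO samples in each, and no member separated the groups. ITGB1 had 5 members, and the pair 25.3 and 47.4 kb upstream separated, with 305, 341 and 274 against 198, 250.5 and 191, and 333, 367 and 344 against 235, 239.5 and 239. SMURF2, a ubiquitin ligase of the TGF-beta pathway, had 6, all with negative log2 differences, and the one 17.7 kb upstream carried 335, 456 and 368 against 299.7, 295 and 256 without overlap.

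**Figure D5:**
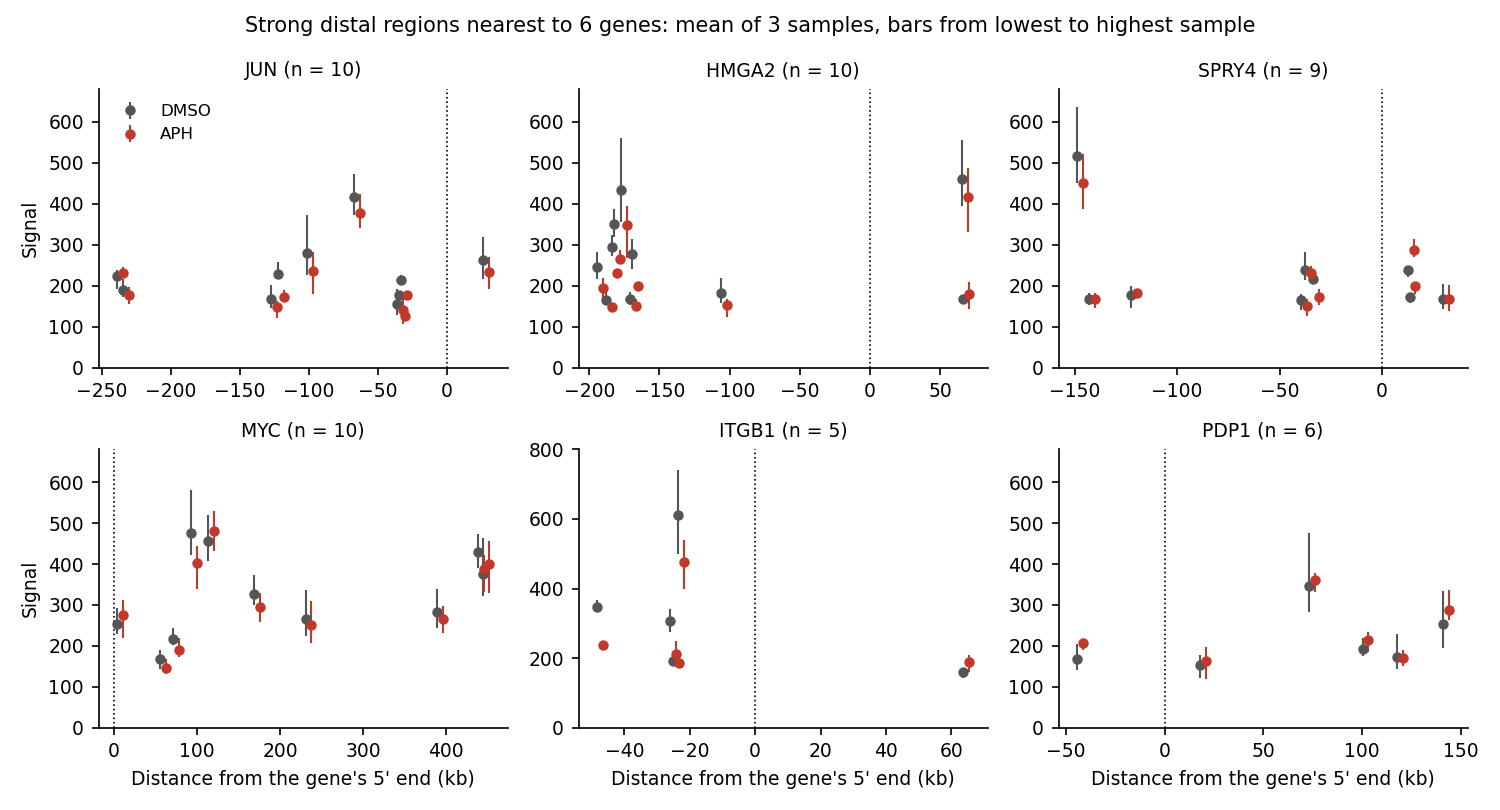
Signal of the strong distal regions nearest to JUN, HMGA2, SPRY4, MYC, ITGB1 and PDP1 against the distance from the 5′ end of the gene in kb, negative upstream, with DMSO in gray and APH in red, shifted slightly sideways. Points are means of 3 samples and bars run from the lowest to the highest sample. At MYC and PDP1 the bars of both conditions overlap in every region, while at ITGB1 2 upstream regions separate.

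Gene lists for signalling pathways and cell states were described by the share of genes that were nearest to a member, beside 10.2% of all coding genes, and by the share of their distal regions that were members, beside 8.22%. Of 24 genes that report MAPK activity 10 had a member, 46 members in all or 27.4% of their distal regions. MYC gave 10 of these 46, SPRY4 9, and DUSP5 and PHLDA1 6 each. Of 12 AP-1 genes 5 had a member (34.9% of distal regions), and 10 of the 15 members were those of JUN. Of 25 integrin and focal adhesion genes 14 had one (21.6%), and of 23 TGF-beta pathway genes 11 (19.8%). 3 of 18 NF-kB genes had one (18.4%), and LIF, which the MAPK list also holds, gave 5 of these 7 members.

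The other lists lay nearer the background in their share of distal regions. These were YAP-TEAD targets (5 of 20 genes, 8.45%), mesenchymal genes (6 of 18, 10.3%), epithelial and intestinal genes (4 of 22, 8.7%), p53 targets (5 of 24, 9.8%), markers of other cell types (3 of 14, 9.68%) and WNT genes (3 of 24, 4.92%). Of 26 genes of the replication checkpoint and fork 1 had a member, WEE1, with 2 of the 17 distal regions of that list. Genes with wide flanks gather more distal regions, and the part of this in the counts was not tested.

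In the AP-1 list, ATF3 had a member 6.47 kb away inside the gene with 311, 397 and 375 in DMSO and 290.0, 308 and 259.8 in APH. FOS had one at 19.7 kb with 331, 367 and 322 against 249, 286 and 260.0, and FOSB one at 10.7 kb, which also held a tRNA gene, with 182, 177 and 174 against 131, 155 and 135. In all 3 the APH samples were lower without overlap, as they were in 6 of the 15 members of the list, where the share was 18.2% of all members and 14.4% of all shared regions. 14 of the 15 had a negative log2 difference, as did 82.7% of all members, and their median was -0.23 against -0.15 over all members. FOSL1, FOSL2, JUNB and JUND had no member.

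In the MAPK list, after SPRY4 and MYC, LIF, a cytokine of the interleukin 6 family, had 5 members, the strongest with 321, 360.2 and 346 in DMSO and 306, 342 and 284 in APH. PHLDA1 had 6, the strongest with 291, 394 and 319.6 against 279, 304 and 233, and both overlapped. DUSP5, a phosphatase of ERK, had 6, while DUSP4 and DUSP6 had none. Of the 46 members 32 had a negative log2 difference, with a median of -0.10, and 2 separated in each direction, where 82.7% of all members were negative and 14.4% and 4.21% of all shared regions were apart with APH lower and higher.

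Among the integrin and focal adhesion genes, PXN, which encodes the scaffold paxillin, had a member inside the gene with 395, 450.5 and 401 in DMSO and 393, 446 and 327 in APH, with overlap. ITGA5, ITGAV, ITGA3, ITGA6, ITGB3 and ITGB5 each had 1, and so did VCL, ACTN4 and FLNA, which tie integrins to actin. 20 of the 25 members of this list had a negative log2 difference, with a median of -0.12, beside 82.7% of all members and 59.3% of all shared regions. In the TGF-beta list, ID1, a target of BMP signalling, had a member with 233, 299 and 253 against 196, 194 and 209, without overlap, and SMAD7, an inhibitor of the pathway, had one with 287, 418 and 238 against 216, 328 and 186, with overlap. 13 of the 21 members of this list had a negative value, with a median of -0.07, beside the same 82.7% and 59.3%.

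Of the p53 targets, BBC3, which encodes the apoptosis factor PUMA, had a member 11.5 kb away with 236, 249.8 and 257 in DMSO and 176, 178 and 186 in APH, and GDF15 had one at 11.7 kb with 168, 190.3 and 186 against 142, 161 and 112. Neither overlapped, whereas the members nearest to TP53INP1, MDM2 and PHLDA3 did, and CDKN1A had no member. WEE1, the kinase that restrains CDK1, had 2 members. The one at 7.47 kb had 373, 546 and 360.4 against 357, 438 and 317, with overlap. The other, at 40.2 kb, had 191, 203 and 209 against 171, 189 and 182, without overlap.

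EPCAM, an epithelial adhesion protein, had a member 8.19 kb away with 172, 259 and 196 in DMSO and 245, 258 and 208 in APH, and KRT20, a marker of differentiated colon cells, one with 150.3, 200.1 and 143 against 167, 192 and 141. VIM, the intermediate filament of mesenchymal cells, had one with 318, 455 and 391.5 against 319, 395 and 315, and ZEB1, a repressor of epithelial genes, one with 299, 352 and 259 against 265, 310.0 and 255. In the YAP-TEAD list CCN1 had one with 428, 513 and 429 against 394, 468 and 403. All 5 overlapped.

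The share of distal regions that were members varied along the genome. By chromosome it was highest on 19 (12.1%), 9 (11.0%), 8 (10.3%) and 7 (10.1%), and lowest on 4 and 18 (5.06% each) and X (3.31%), leaving out Y with 2 distal regions and 0 members. In 268 windows of 10 Mb with at least 50 distal regions the median was 6.92%, and the highest share was 28.6% at 140 to 150 Mb of chromosome 8, with 52 members. There the median DMSO signal of promoter regions was 254, and copy number was not measured. Chromosome 6 from 20 to 30 Mb had 24.4%, and 30 of its 52 members held tRNA genes. Chromosome 1 from 140 to 150 Mb had 25%, with 17 members, 5 of them with tRNA genes. Chromosome 7 from 130 to 140 Mb, which holds the LINC-PINT cluster, had 20%, with a promoter median of 231.

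Among members that separated the groups, the lowest log2 differences included ribosomal RNA sequence on chromosome 21. chr21:8433987-8434387 in RNA45SN1, a copy of the ribosomal RNA precursor gene, nearest to LOC102723475, carried 394, 529 and 366 in DMSO and 239, 230.2 and 190.3 in APH (-0.95). chr21:8441018-8441392 in RNA28SN1 of the same precursor carried 167, 245 and 176 against 100.1, 114 and 97.7 (-0.89), and chr21:8234051-8234712, outside annotated small RNA genes, carried 225, 229 and 202 against 139, 153 and 93.7 (-0.79). The ribosomal genes exist in many near-identical copies, so their levels are uncertain. The RNA45SN1 region was the 1 member that limma called with samples centred on their median (adjusted p = 0.015). It was also the 1 member called by limma without DMSO replicate 2 (adjusted p = 0.049). With the deposited values of all 6 samples and no replicate block it was not called.

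A region 9.6 kb from PHF2, a histone demethylase gene, carried 248, 332 and 300.1 in DMSO and 147, 138 and 177 in APH (-0.92). MIR3180-4, 60.7 kb from RRN3, carried 194, 207 and 240.0 against 115, 112 and 173 (-0.70). The highest differences began with a region inside GALNTL5, 33.1 kb from GALNT11, with 153, 204 and 158 in DMSO and 248, 277 and 218 in APH (0.53). One 69.3 kb from PODXL, which encodes the sialomucin podocalyxin, carried 154, 179 and 158 against 210.5, 246 and 200.3 (0.42), and one inside MAEA, a subunit of a ubiquitin ligase, carried 135, 184 and 169.8 against 215, 239 and 188 (0.40). After RNY1 came one 181.8 kb from PRSS1 with 217, 214 and 197 against 262, 289 and 269 (0.38). 4 of these 5, all but the one in MAEA, lay on chromosome 7. These members were picked for their differences, which are therefore a description.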

How the data were processed

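ATAC-seq peak lists of 6 RKO samples (3 DMSO, 3 APH) were analysed. For each sample the authors deposited peak positions with a signal, which averages coverage in 32-nt bins over the peak, with each alignment lengthened to 200 bp and no scaling for library size. Per the submitters' processing notes, the tools were BWA 0.7.12 and MACS2 2.1.0 and the build was hg38, and per the study's methods duplicates and blacklisted peaks were removed and peaks were called in each sample. The depth is unknown, so no counting interval is given. Nothing in the labels ties a replicate number to a shared experiment, and p-values measure the spread between these samples.

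Peaks overlapping by 1 bp were merged, and the signal of a region in a sample was the length-weighted mean of its peaks. Gene starts, classes and sequences came from RefSeq tables of GRCh38.p14 with 20037 coding genes, and 28779 coding starts were used. limma 3.58.1 (R 4.3.3) with Benjamini-Hochberg adjustment was fitted to log2(signal + 1) over all 50150 shared regions and checked on simulated data. Single values per sample were compared by two-sided exact permutation tests with scipy 1.17.1. Sequences of the peaks themselves were not analysed here.

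Members and gene lists were chosen with earlier results of these data known. Regions are named by the nearest coding start: the 10 of highest DMSO mean, the 3 on each side of the threshold, the 5 highest and 5 lowest log2 differences among members whose groups do not overlap, the 5 largest clusters, genes nearest to 3 or more members, genes of the lists, and noncoding genes at members by DMSO mean. The small RNA genes, CAMK1G, FRMD4A and SNX31 were named after their values were seen. One gene of the lists and the cluster around it are not reported here, though its members stay in every count. Alternatives covered the threshold, distances, scaling, pseudocount, replicates left out and a replicate block.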

Additional observations from a re-analysis of the deposited data

How the results depend on the processing

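The number of strong distal regions was 4467 at a DMSO threshold of 120 and 1373 at 200, and 2123 to 3375 under the other alternatives. Without 1 DMSO sample it was 2351 to 3031, an alternative added after the data were seen, as were leaving out chromosome 8 or the start of chromosome 21 and all settings for the classes. The median log2 difference of the members was reversed by quantile normalization (0.056) and when members were chosen on DMSO replicate 2 alone (0.0097). In the other alternatives it stayed negative, with -0.23 to -0.03 when a replicate was left out. In the classes, quantile normalization reversed the medians inside (0.077) and outside coding genes (0.070), and in the other 4 classes every setting run gave a negative median. The share of members with another within 20 kb was 23% at the shorter and 40.1% at the longer distance tried, and 20.9% for members of at least 200. The difference in width was -17.4 to -1.17 bp when a replicate was left out. The log2 ratio of distal to promoter signal differed by 0.08 to 0.20 when a replicate was left out. The causes of these changes were not tested.

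limma's count of regions lower in APH at an adjusted p of 0.05, which was 0, became 1 with samples centred on their median, and that 1 was a strong distal region. When a replicate was left out it was 0 to 3 over all shared regions and 0 to 1 among the members, the calls coming without DMSO replicate 2. With a replicate block it called 5583 regions lower and 1021 higher in APH, of which 533 and 19 were strong distal regions. At an unadjusted p under 0.05, leaving out a replicate gave 184 to 503 members lower and 3 to 98 higher in APH. Fewest were lower without APH replicate 1 and most were higher without DMSO replicate 2. Over all shared regions these counts ran from 2068 to 5031 lower and from 420 to 3828 higher. The replicate numbers were not taken as pairs. Deviations of same-numbered samples from their group means correlated at -0.01, 0.48 and 0.52, and DMSO replicate 1 correlated best with APH replicate 3 (0.13). The replicate block left the median log2 difference at -0.15.

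Depth is unknown, so a difference in depth between samples cannot be told apart from one in accessibility. 3 samples a group limit exact tests to a p of 0.1. For chromosome 8 and for coding genes without listed starts, alternative starts were not removed.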

Other observations

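162 distal regions with a peak in all samples reached a mean signal of 150 in APH and not in DMSO, and so were not among the strong distal regions. They were picked on their APH values, and their differences are a description. The one with the highest log2 difference lay inside CAMK1G, which encodes a calcium/calmodulin-dependent kinase, and carried 97.4, 112 and 114 in DMSO and 187, 193 and 168 in APH (0.76), without overlap. A region inside SNX31 carried 112, 119 and 106 against 161, 178 and 135, also without overlap, and one inside FRMD4A carried 120.1, 176 and 102 against 238, 249 and 149, with overlap.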
